A study of Homo sapiens with 4 samples.

Results

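The heat shock proteins and their DNAJ co-chaperones were followed in A549 cells that overexpressed SAMD9. Members were the protein-coding genes whose symbol begins with DNAJ, HSPA, HSPB, HSPH or HSP90, together with HSPD1, HSPE1, HSF1, HSF2 and BAG3, which gave 78 of the 58812 genes listed in the count files. A549 is an established epithelial line from a human lung carcinoma, and the labels describe the cells as wild type. The control group received pCMV6-Entry, an expression plasmid with no insert, and the other group received a plasmid for SAMD9 with a Myc-DDK tag, SAMD9 being an interferon-inducible antiviral protein. Both groups received 1 µg of plasmid for 24 hr and contributed 2 libraries each, made from total RNA after ribosomal RNA depletion. The control therefore shares transfection and plasmid with the SAMD9 group, and no untransfected group was analysed here. The labels do not say whether the 2 libraries of a group came from separate cultures, so every p-value measures only the spread between these libraries, which may be technical.

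Heat shock proteins are chaperones that keep other proteins folded. Members of the HSPA family (HSP70) bind unfolded stretches of protein in a cycle driven by ATP. J-domain proteins, the DNAJ genes, deliver substrates and trigger ATP hydrolysis, while exchange factors of the HSP110 type (HSPH1, HSPA4, HSPA4L), HSPBP1 and the BAG proteins release the nucleotide. HSP90 finishes the folding of kinases and receptors, small heat shock proteins (HSPB) hold aggregating proteins, and HSPD1 with HSPE1 forms the folding chamber of mitochondria. When unfolded protein accumulates, the transcription factor HSF1 binds repeated, inverted GAA units (heat shock elements) upstream of the inducible members. The chaperones of the endoplasmic reticulum (ER), such as HSPA5 (BiP), are controlled mainly by the unfolded protein response.

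With SAMD9, a small set of HSP70 and J-domain genes, mainly cytosolic, was clearly higher. In contrast, 40 of the 68 members with enough counts to test did not pass the test in either direction. Of the 68, 18 passed the test in the higher direction with SAMD9 and 10 in the lower, which is 26.5% and 14.7% of them. A gene passed, or was called, when edgeR's quasi-likelihood test gave it a Benjamini-Hochberg adjusted p below 0.05, with the adjustment taken over the 19814 genes that had enough counts. The same call was made for 15.3% of all genes tested in the higher direction and 12.2% in the lower, 27.5% in either, so the members' share of lower calls was near the background. The members' median log2 fold change was 0.07, against -0.01 for all genes tested. The strongly raised members were HSPA6, DNAJC15, DNAJA1, HSPA1B and HSPA1A, all with log2 fold changes of at least 0.75. The largest falls among called members were those of HSPA12A, HSPA4L, DNAJB2 and HSPA2. Many of the other calls were small and moved with the scaling: when libraries were scaled by total counts in place of TMM, the median of all genes shifted by -0.19 on the log2 scale and 7 members were higher and 23 lower, with a median of -0.12, beside 9.96% and 28.5% of all genes. Higher genes made up 55.7% of all calls with TMM and 25.9% with total counts. Per-gene levels below are TMM-normalised CPM, counts scaled to a common library size, in each library. Groups without overlap were common: both SAMD9 libraries lay above both controls for 31.1% of all genes tested and below both for 30.9%. Without SAMD9 replicate 2, 11 members were higher and 6 lower, and without SAMD9 replicate 1, 13 and 6. Of the 28 called members, 11 kept their call under all 10 alternatives tried: DNAJA1, HSPA6, HSPA1A, HSPA1B, DNAJC15, DNAJC6 and DNAJB9 in the higher direction, and HSPA12A, HSPA4L, HSPA2 and DNAJB2 in the lower. For HSPA1B the alternative that adds near-identical copies tested it only summed with HSPA1A.

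Promoter sequences are shown first for the members that carry heat shock element letters, since they let the reader set the sequence beside the change in RNA. RefSeq promoters (GRCh38.p14, from 250 bases before to 50 after an annotated start) were found for 69 of the 78 members, 91 promoters in all, and for 27305 genes overall with 35116 promoters. The search, on both strands, was for 3 inverted units: GAA, any 2 bases, TTC, any 2 bases, GAA, or the same with GAA and TTC exchanged. They were present in 7 members, 10.1% of the 69, against 0.608% of all genes. The 7 were DNAJA1, DNAJB6, HSPA6, HSPA8, HSP90AA1, HSP90AB1 and HSPD1. The following stretches, written 5′ to 3′ on the gene's strand with the 3 units in capitals, come from the members whose RNA rose, in order of their change, followed by HSPD1, whose RNA did not pass the test.
HSPA6 (chr1:161524416-161524528, plus strand): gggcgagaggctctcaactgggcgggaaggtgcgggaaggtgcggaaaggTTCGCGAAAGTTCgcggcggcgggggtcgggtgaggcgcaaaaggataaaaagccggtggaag
DNAJA1 (chr9:33025226-33025302, plus strand): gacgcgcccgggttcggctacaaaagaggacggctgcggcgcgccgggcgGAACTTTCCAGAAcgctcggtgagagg
DNAJB6 (chr7:157336823-157336935, plus strand): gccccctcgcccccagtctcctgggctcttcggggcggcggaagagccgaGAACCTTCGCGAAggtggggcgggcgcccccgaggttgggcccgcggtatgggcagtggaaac
HSPA8 (chr11:123062129-123062386, minus strand): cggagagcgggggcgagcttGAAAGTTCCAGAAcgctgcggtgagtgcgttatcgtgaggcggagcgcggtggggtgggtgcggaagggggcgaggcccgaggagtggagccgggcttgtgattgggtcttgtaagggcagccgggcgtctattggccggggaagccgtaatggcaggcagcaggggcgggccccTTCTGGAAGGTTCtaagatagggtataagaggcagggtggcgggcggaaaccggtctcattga
HSP90AB1 (chr6:44247728-44247893, plus strand): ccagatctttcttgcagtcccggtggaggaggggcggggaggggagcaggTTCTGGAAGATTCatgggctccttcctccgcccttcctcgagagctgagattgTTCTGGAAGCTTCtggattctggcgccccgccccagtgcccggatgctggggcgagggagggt
HSP90AA1 (chr14:102087070-102087182, minus strand): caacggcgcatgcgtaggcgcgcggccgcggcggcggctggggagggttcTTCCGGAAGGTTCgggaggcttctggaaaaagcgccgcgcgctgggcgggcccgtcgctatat
HSPD1 (chr2:197500018-197500090, minus strand): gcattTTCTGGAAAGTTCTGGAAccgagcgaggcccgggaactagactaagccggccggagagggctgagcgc

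The match lay 74 bases upstream of the annotated start in HSPA6 (position -74), at -131 in DNAJB6 and at -88 in HSP90AA1, while in DNAJA1 it began at position 3, just past the start (the start counts as 0). HSPA8 and HSP90AB1 each had 2 separate matches, and the 2 matches of HSPD1 overlapped each other. Of these 7 members, all but HSPD1 were called higher, beside 26.5% of the tested members and 15.3% of all genes tested. Under total-count scaling DNAJA1 and HSPA6 kept that call, and the log2 fold changes of HSPA8, HSP90AB1, HSP90AA1 and HSPD1 changed sign.

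A shorter search for 2 inverted units, GAA and TTC in either order with any 2 bases between them, which every 3-unit match also contains, found 22 members (31.9%), against 16.2% of all genes. The near-identical inducible genes HSPA1A and HSPA1B had 1 such match each, at -106 and -105, and are printed here because their RNA rose without the 3-unit letters in this window. Capitals mark the 2 units.
HSPA1A (chr6:31815387-31815494, plus strand): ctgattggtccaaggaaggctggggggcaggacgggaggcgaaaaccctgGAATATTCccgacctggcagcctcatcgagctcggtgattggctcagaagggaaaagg
HSPA1B (chr6:31827583-31827690, plus strand): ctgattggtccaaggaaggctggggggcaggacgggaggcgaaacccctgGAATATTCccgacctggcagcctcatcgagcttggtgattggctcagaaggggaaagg

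Of the 22 members with the 2-unit letters, 11 were called higher, 1 was called lower, 9 were not called and 1, HSPB3, was not tested. Of all genes tested, 15.3% were called higher and 12.2% lower. Calls among all genes with these letters were not counted, and a link between letters and change was not tested. Beyond those with 3 units and the 2 genes just printed, the higher ones were DNAJC15 (match at -189), DNAJC6 (at 42) and HSPB1 (at -182), and the lower one was HSPA4L (at -170). Those not called were DNAJA4, DNAJB1, DNAJB4, DNAJB7, HSPA1L, HSPA9, HSPB6, HSPB8 and HSPD1. Under total-count scaling DNAJA1, HSPA6, HSPA1A, HSPA1B, DNAJC15 and DNAJC6 stayed higher, while DNAJB6, HSPA8, HSP90AA1, HSP90AB1 and HSPB1 lost that call. With that scaling HSPA4L, HSPA9 and HSPD1 were called lower, beside 9.96% of all genes higher and 28.5% lower. The match of HSPA1L (at -161) is the same stretch as that of HSPA1A, since their promoter windows overlap on opposite strands. That stretch therefore counts for a gene called higher and for one not called. The core of an interferon-stimulated response element, read as GAAA, any 2 bases, GAAA on either strand, was found in 1 member, HSPBAP1 (1.45%), against 4.38% of all genes. HSPBAP1 did not pass the test, with 7.93 and 6.31 CPM in the empty vector libraries and 5.66 and 7.61 with SAMD9. These matches describe letters in one window only, and binding of a factor was not measured.

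**Figure D1:**
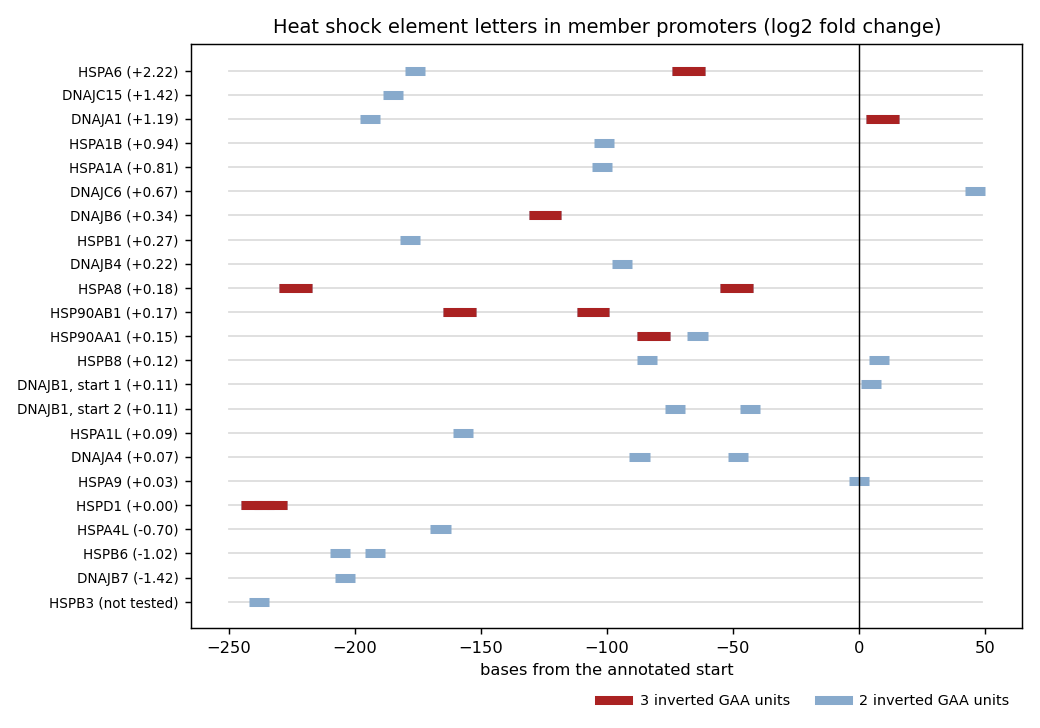
Position of heat shock element letters in the RefSeq promoters of members that hold them, as bases from the annotated start (0, vertical line), with 3 inverted units in red and 2 in blue. Members are ordered by log2 fold change (in brackets, SAMD9 over empty vector), from HSPA6 at 2.22 down to DNAJB7 at -1.42, and red marks are seen from the top of the order to HSPD1 at 0.00. DNAJB1 appears on 2 lines, for the 2 of its 3 annotated starts that hold a match.

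Library totals ranged from 29301854 to 39670083 counts. The transfected gene, SAMD9, gave 444 and 400 counts in the controls and 220123 and 184350 after its transfection, a log2 change of 8.88 (SE 0.08, edgeR adjusted p = 2.2e-26). The summed level of 5 epithelial markers (EPCAM, KRT8, KRT18, KRT19, CDH1) was 4612 to 5101 CPM with empty vector and 5995 to 6294 CPM with SAMD9. Markers of leukocytes (4 genes) summed to 2.0 to 2.81 and 2.27 to 2.71 CPM, those of endothelium (3 genes) to 0.384 to 0.508 and 0.349 to 0.594 CPM, and those of fibroblasts (4 genes) to 1.69 to 2.72 and 5.85 to 6.04 CPM. No marker was at 0 in all 4 libraries, and the part of these levels in the results was not tested. In RNA from whole cultures, fewer cells of a type and less RNA per cell cannot be told apart.

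The HSP70 family (14 members, all tested) had 5 members higher and 3 lower (35.7% and 21.4%, beside 15.3% and 12.2% of all genes tested). Its median log2 fold change was 0.05, and -0.14 under total-count scaling. With that scaling 3 members were higher and 6 lower (21.4% and 42.9%, beside 9.96% and 28.5% of all genes). The rises were those of the stress-inducible cytosolic genes and, by much less, of HSPA8 and HSPA5. The calls of HSPA8 and HSPA5 were lost under total-count scaling (log2 fold changes -0.01 and 0.10). HSPA6, the strictly inducible HSP70B', lies on chromosome 1 (161524540 to 161526910, plus strand, GRCh38 as in the count files). It stood at 3.10 and 2.24 CPM in the empty vector libraries and 11.7 and 13.2 CPM in the SAMD9 libraries, from raw counts of 97, 75, 437 and 378. Both SAMD9 libraries were far above both controls, and the log2 change of 2.22 (SE 0.19, edgeR adjusted p = 3.1e-09) was the largest rise among the tested members. Of the 31-base words in its transcripts, 56.6% also occur in the pseudogene HSPA7, which had 6, 2, 30 and 23 counts, so the division of reads between these genes is uncertain.

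HSPA1A and HSPA1B, neighbouring genes for the major inducible HSP70 (chromosome 6, 31815464 to 31817946 and 31827735 to 31830255, both plus strand), rose together. HSPA1A stood at 136 and 159.9 CPM with empty vector and 256 and 264 CPM with SAMD9, a log2 change of 0.81 (SE 0.07, edgeR adjusted p = 3.9e-09). HSPA1B stood at 109 and 123 CPM with empty vector and 223 and 221 CPM with SAMD9, a log2 change of 0.94 (SE 0.07, adjusted p = 1.5e-10). Neither gene's groups overlapped. They share 73.6% and 73.1% of their 31-base words with each other, so their separate values are uncertain. HSPA1L, the testis HSP70 in the same cluster, had 2.27 and 1.88 CPM with empty vector and 2.25 and 2.17 with SAMD9, and its groups overlapped.

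HSPA8, the constitutive HSC70, and HSPA5, the HSP70 of the ER, were the most abundant members of the family. HSPA8 stood at 1379.9 and 1415 CPM with empty vector and 1556 and 1617 CPM with SAMD9, a log2 change of 0.18 (SE 0.05, edgeR adjusted p = 0.00705) that became -0.01 under total-count scaling and lost its call without SAMD9 replicate 2. HSPA5 stood at 1234 and 999 CPM with empty vector and 1381 and 1348 CPM with SAMD9, a log2 change of 0.29 (SE 0.07, edgeR adjusted p = 0.00240). The HSPA5 control libraries differed from each other by more than the SAMD9 libraries did, and its call was lost with DESeq2 (adjusted p = 0.175) and under total-count scaling. The mitochondrial HSPA9 (mortalin) had overlapping groups, with 741 and 692 CPM against 726 and 739 CPM (log2 fold change 0.03, SE 0.05, and -0.16 under total-count scaling).

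The falls in the HSP70 family were those of HSPA12A, HSPA4L and HSPA2. HSPA4L, an HSP110-type exchange factor (chromosome 4, 127781821 to 127840733, plus strand), stood at 39.3 and 43.1 CPM with empty vector and 27.0 and 23.9 CPM with SAMD9. Its log2 fold change was -0.70 (SE 0.10, edgeR adjusted p = 7.5e-06), and its groups did not overlap. HSPA12A, an atypical HSP70 (chromosome 10, 116671192 to 116742574, minus strand), stood at 32.8 and 37.7 CPM with empty vector and 22.3 and 20.2 CPM with SAMD9, a log2 change of -0.73 (SE 0.10, adjusted p = 1.0e-05). HSPA2, best known from germ cells, stood at 48.6 and 61.1 CPM with empty vector and 39.1 and 38.5 CPM with SAMD9, a log2 change of -0.50 (SE 0.10, adjusted p = 3.6e-04). HSPA12A and HSPA2 fall outside the rule for named genes and were picked after their values were seen. In all 3 genes both SAMD9 libraries lay below both controls, as they did for 30.9% of all genes tested. HSPA4L overlaps RPL21P53 and an unnamed gene on the opposite strand over 183 and 536 exonic bases, and HSPA12A overlaps HSPA12A-AS1 over 535.

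The other HSP110-type factors did not pass the test. HSPH1 (HSP105), a gene known for strong heat induction, stood at 211 and 218 CPM with empty vector and 219.9 and 217 CPM with SAMD9, a log2 change of 0.02 (SE 0.06, edgeR adjusted p = 0.820). It was called lower under total-count scaling, at -0.16. HSPA4 had a log2 change of -0.12 (SE 0.06), with 305 and 317 CPM against 281 and 291 CPM. The ribosome-associated HSPA14 (-0.17), the microsomal HSPA13 (0.07, and -0.12 under total-count scaling) and the atypical HSPA12B (-0.17) also did not pass.

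**Figure D2:**
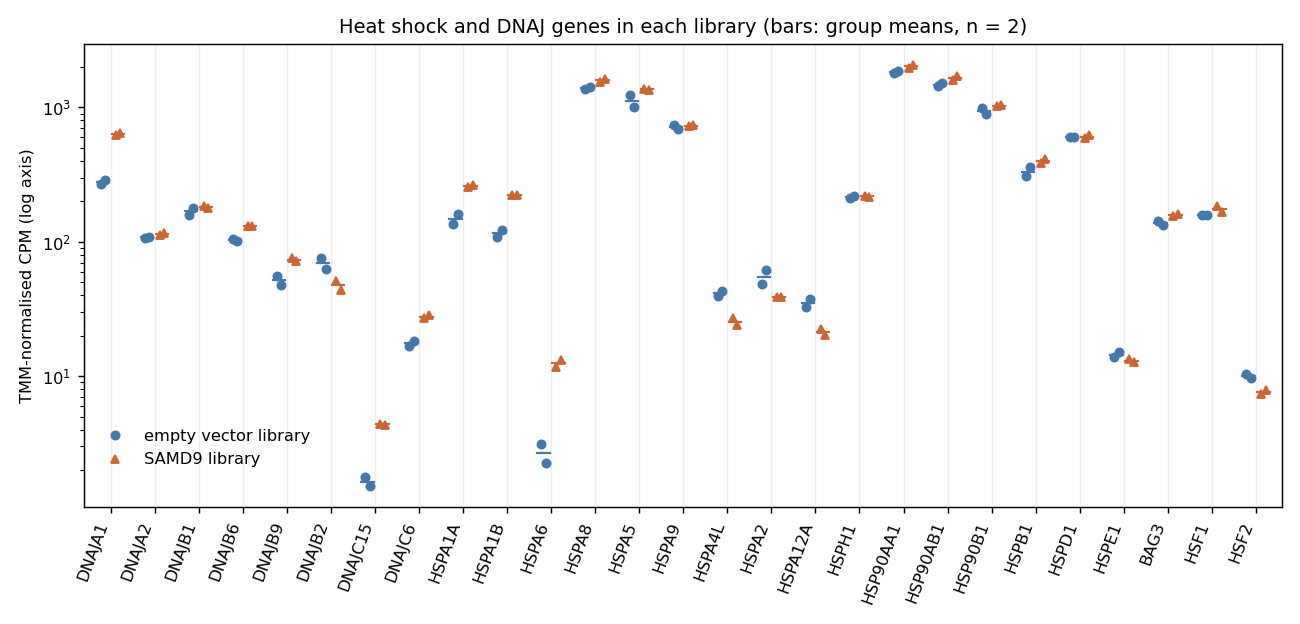
TMM-normalised CPM (log axis) of 27 members in each of the 4 libraries, with circles for empty vector, triangles for SAMD9 and a bar for each group's mean (n = 2). DNAJA1, HSPA1A, HSPA1B, HSPA6, DNAJC15 and DNAJC6 are clearly higher in both SAMD9 libraries, DNAJB2, HSPA4L, HSPA2 and HSPA12A are lower, and HSPD1, HSPA9 and HSPH1 sit level.

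The DNAJ genes (45 members, 39 tested) had 9 members higher and 7 lower (23.1% and 17.9%, beside 15.3% and 12.2% of all genes tested). Under total-count scaling 4 were higher and 13 lower (10.3% and 33.3%, beside 9.96% and 28.5% of all genes). Among the type A proteins, the general J-domain partners of HSP70, DNAJA1 stood apart. DNAJA1 (chromosome 9, 33025211 to 33039907, plus strand) stood at 270.3 and 286 CPM with empty vector and 628 and 645 CPM with SAMD9, from raw counts of 8458, 9574, 23401 and 18462. Its log2 fold change was 1.19 (SE 0.06, edgeR adjusted p = 8.8e-14), with replicates that differed by far less than the groups. The processed pseudogene DNAJA1P3, which holds 6.69% of its 31-base words, had 80, 72, 190 and 171 counts, at most 0.946% of DNAJA1's in any library. No other annotated gene overlaps the exons of DNAJA1.

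DNAJA2, the other abundant cytosolic type A gene, did not pass, with 106 and 109 CPM against 113 and 117 CPM (log2 fold change 0.09, SE 0.07, edgeR adjusted p = 0.333, and -0.09 under total-count scaling). DNAJA4 had only 2.14 and 1.4 CPM with empty vector and 1.82 and 1.89 CPM with SAMD9, and its groups overlapped. DNAJA3, the mitochondrial type A protein, was lower, at 123 and 130.2 CPM with empty vector and 102 and 114 CPM with SAMD9 (log2 fold change -0.23, SE 0.07, adjusted p = 0.0171), a call that was lost without SAMD9 replicate 1.

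Of the type B genes (12 members, 10 tested), 3 were higher and 1 lower with TMM, with a median of 0.13. Total-count scaling gave 1 higher and 2 lower, with a median of -0.05. The shares of all genes tested were 15.3% higher and 12.2% lower with TMM, and 9.96% and 28.5% under total-count scaling. DNAJB9 (ERdj4), a BiP co-chaperone of the unfolded protein response, stood at 55.6 and 48.0 CPM with empty vector and 75.1 and 72.1 CPM with SAMD9, a log2 change of 0.51 (SE 0.08, edgeR adjusted p = 4.6e-05). DNAJB6, a suppressor of aggregation, rose from 104 and 102 CPM to 130.4 and 131 CPM (0.34, SE 0.07, adjusted p = 2.8e-04), a call lost under total-count scaling. DNAJB5 rose at a low level, from 5.24 and 4.96 CPM to 7.54 and 7.93 CPM (0.60, SE 0.18, adjusted p = 0.0135), a call lost under total-count scaling and without SAMD9 replicate 2. None of these 3 genes had overlapping groups, where 31.1% of all genes tested had both SAMD9 libraries above both controls. DNAJB9 shares 183 and 99 exonic bases with THAP5 and PNPLA8 on the opposite strand.

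DNAJB2, a J-domain protein that binds ubiquitylated clients, was the type B gene that fell. It stood at 75.8 and 62.2 CPM with empty vector and 51.4 and 44.1 CPM with SAMD9, a log2 change of -0.53 (SE 0.09, edgeR adjusted p = 1.6e-04). DNAJB1, the classical heat-inducible HSP40, had 159 and 177 CPM with empty vector and 184 and 178 CPM with SAMD9. Its groups differed little, with a log2 change of 0.11 (SE 0.07, adjusted p = 0.249) and -0.08 under total-count scaling. DNAJB7 had the lowest tested value, -1.42, from under 1 CPM in every library (SE 0.70, adjusted p = 0.147).

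The type C genes, which carry a J domain in otherwise unlike proteins, had 5 higher and 5 lower among 25 tested of 28. Their median was 0.02. Total-count scaling gave 2 higher and 10 lower, with a median of -0.17. Among all genes tested the calls were 15.3% higher and 12.2% lower with TMM, and 9.96% and 28.5% under total-count scaling. DNAJC15, a J-domain protein of the mitochondrial import machinery (chromosome 13, 43023203 to 43114224, plus strand), stood at 1.76 and 1.52 CPM with empty vector and 4.42 and 4.33 CPM with SAMD9. The raw counts were 55, 51, 165 and 124, and the log2 fold change was 1.42 (SE 0.26, edgeR adjusted p = 2.4e-04). DNAJC6, the clathrin-uncoating auxilin (chromosome 1, 65248219 to 65415869, plus strand), rose from 16.7 and 18.2 CPM to 27.1 and 28.4 CPM, a log2 change of 0.67 (SE 0.11, adjusted p = 4.9e-05). For both genes the SAMD9 libraries were close to each other and well above the controls.

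DNAJC1, an ER membrane J-domain protein, rose from 45.9 and 46.7 CPM to 65.7 and 55.6 CPM (log2 fold change 0.39, SE 0.09, edgeR adjusted p = 0.00142), and its call was lost under total-count scaling and without SAMD9 replicate 1. DNAJC22, a J-domain membrane protein, was lower, at 32.9 and 34.8 CPM against 27.9 and 23.6 CPM (-0.39, SE 0.10, adjusted p = 0.00576), a call that was lost without SAMD9 replicate 2. DNAJC5, the cysteine string protein of secretory vesicles, was lower at 119.7 and 124 CPM against 110.2 and 100.3 CPM (-0.21, SE 0.07, adjusted p = 0.0275), also not called without SAMD9 replicate 2. The groups of these 3 genes did not overlap. Of all genes tested, 31.1% had both SAMD9 libraries above both controls and 30.9% below both.

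The remaining calls among the type C genes are named to account for every call. DNAJC14, an ER membrane protein (0.33), and DNAJC13, the endosomal RME-8 (0.23), were higher with TMM. DNAJC25 (-0.48), DNAJC21, a factor of large ribosomal subunit maturation (-0.32), and DNAJC2, the ribosome-associated MPP11 (-0.23), were lower. Each of these 5 lost its call under at least 2 of the alternatives. DNAJC14 shares 973 exonic bases with an unnamed gene on the same strand and 920 with ORMDL2 on the other, and 29.5% of its 31-base words also occur in other genes, so its count is uncertain. DNAJC2 shares 628 exonic bases with PMPCB on the opposite strand. DNAJC3 (P58IPK), an ER co-chaperone known as an inhibitor of the kinases PKR and PERK, did not pass, at 115 and 103 CPM with empty vector and 102 and 93.6 CPM with SAMD9 (-0.16, SE 0.07, edgeR adjusted p = 0.113), and was called lower under total-count scaling.

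**Figure D3:**
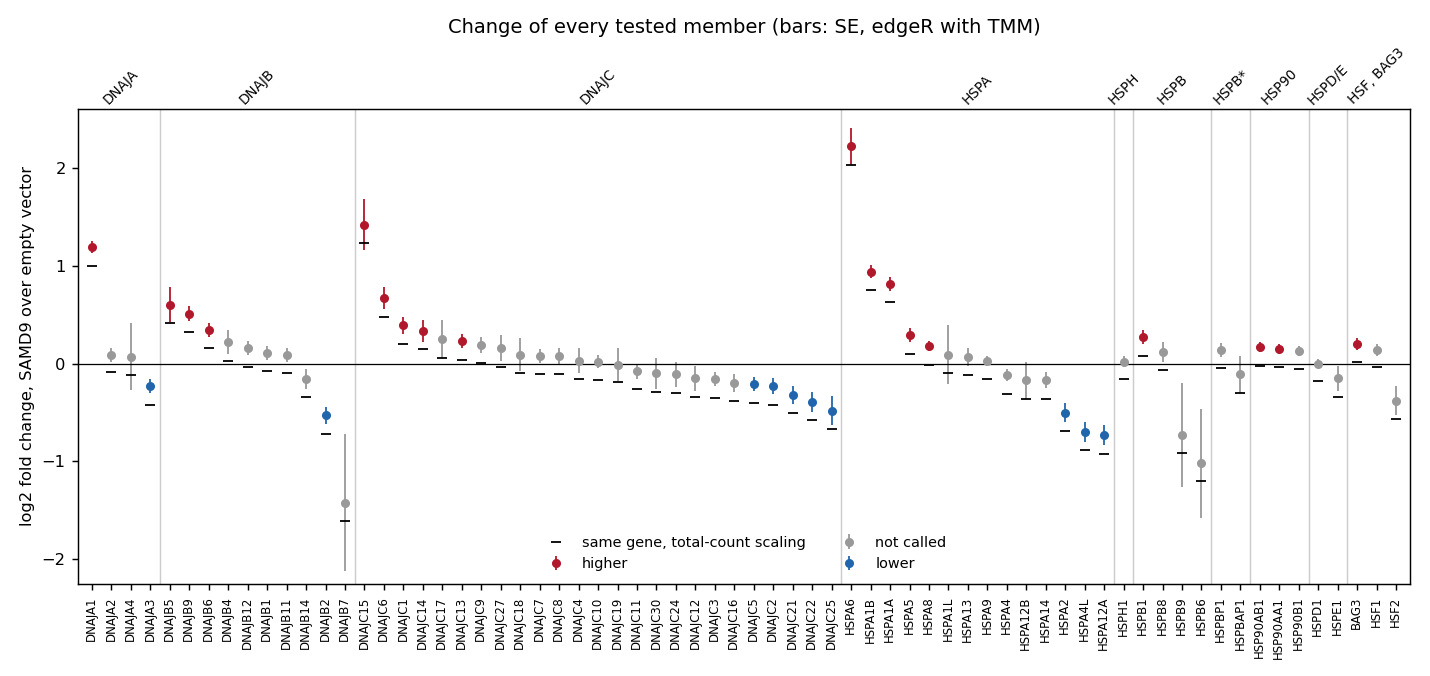
Log2 fold change (SAMD9 over empty vector, with its standard error as a bar) of the 68 tested members, grouped by subfamily and coloured by edgeR call (18 higher in red, 10 lower in blue). The short black dash under each point is the same gene with total-count scaling, and HSPB* marks HSPBP1 and HSPBAP1. HSPA6 at 2.22, DNAJC15 at 1.42 and DNAJA1 at 1.19 stand above a family that otherwise lies mostly within 0.75 of 0.

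The 3 HSP90 genes had a summed level of 4211 and 4261 CPM with empty vector and 4596 and 4808 CPM with SAMD9, close to that of all 14 HSPA genes (4159.9, 3963, 4639.5 and 4698 CPM). HSP90AA1, the inducible alpha form, stood at 1792 and 1858 CPM with empty vector and 1979 and 2066 CPM with SAMD9 (log2 fold change 0.15, SE 0.05, edgeR adjusted p = 0.0255). HSP90AB1, the constitutive beta form, stood at 1431 and 1506 CPM with empty vector and 1597 and 1701 CPM with SAMD9 (0.17, SE 0.05, adjusted p = 0.0174). Both passed the test with TMM and with DESeq2, but under total-count scaling their log2 fold changes were -0.04 and -0.02. HSP90B1 (GRP94), the form of the ER, did not pass, with 988 and 896 CPM against 1019.8 and 1041 CPM (0.13, SE 0.05, adjusted p = 0.0882, and -0.06 under total-count scaling). Without SAMD9 replicate 2 neither HSP90AA1 nor HSP90AB1 was called. From 25.6% to 35.7% of the 31-base words of these 2 genes also occur in other genes.

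Small heat shock proteins were represented mainly by HSPB1. HSPB1 (HSP27) stood at 307 and 359 CPM with empty vector and 388 and 416 CPM with SAMD9 (log2 fold change 0.27, SE 0.07, edgeR adjusted p = 0.00363), and lost its call under total-count scaling and without SAMD9 replicate 2. HSPB8, the partner of BAG3, had 23.8 and 23.7 CPM against 25.2 and 26.3 CPM (0.12, SE 0.10, and -0.07 under total-count scaling). HSPB6 and HSPB9 had at most 1.17 CPM in any library and log2 fold changes of -1.02 (SE 0.56) and -0.73 (SE 0.53) that did not pass. The median of the 4 tested genes was therefore -0.30, while their summed level with the untested ones, carried by HSPB1, had a log2 ratio of 0.26. HSPBP1, an HSP70 exchange factor that shares only the prefix, did not pass at 103 and 114 CPM against 124 and 114 CPM (0.14, SE 0.07, and -0.05 under total-count scaling).

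The mitochondrial chaperonin genes HSPD1 (HSP60) and HSPE1 (HSP10), which lie head to head, did not pass. HSPD1 stood at 605 and 607 CPM with empty vector and 593 and 622 CPM with SAMD9, a log2 change of 0.00 (SE 0.05, edgeR adjusted p = 0.971) with a 3-unit heat shock element match in its printed promoter. HSPE1 stood at 13.8 and 15 CPM against 13.3 and 12.7 CPM (-0.15, SE 0.13, adjusted p = 0.442). Under total-count scaling both were called lower, at -0.18 and -0.34. The models of the 2 genes share 281 exonic bases on opposite strands.

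Among the regulators, HSF1, the main transcription factor of the heat shock response, stood at 159 and 157 CPM with empty vector and 183 and 166 CPM with SAMD9 and did not pass (log2 fold change 0.14, SE 0.06, edgeR adjusted p = 0.109, and -0.04 under total-count scaling). HSF2 had 10.3 and 9.65 CPM against 7.40 and 7.93 CPM (-0.38, SE 0.15, adjusted p = 0.0700), and was called lower under total-count scaling. BAG3, which links HSP70 to selective autophagy, rose from 142 and 134 CPM to 156 and 162 CPM (0.20, SE 0.06, adjusted p = 0.0197), a call lost under total-count scaling and without either SAMD9 library. The groups of all 3 genes were separate. Of all genes tested, 31.1% had both SAMD9 libraries above both controls and 30.9% below both.

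Grouped by the usual location of the protein, the cytosolic members (39, of which 35 tested) had 11 higher and 6 lower with a median of 0.08, and 4 and 10 with a median of -0.11 under total-count scaling. Of the 13 ER members, all tested, HSPA5, DNAJB9, DNAJC1 and DNAJC14 were higher and the others did not pass, with a median of 0.09. Under total-count scaling DNAJB9 alone was higher and 4 ER members were lower, with a median of -0.10. The 8 mitochondrial members had DNAJC15 higher and DNAJA3 lower, a median of -0.04 and, under total-count scaling, 1 higher, 5 lower and a median of -0.23. Their summed level hardly moved with TMM, at 1559.7 and 1520.5 CPM against 1513 and 1562 CPM. Of all genes tested, 15.3% were higher and 12.2% lower with TMM, and 9.96% and 28.5% under total-count scaling. The TMM shares were 31.4% and 17.1% for cytosol, 30.8% and 0.0% for ER, and 12.5% and 12.5% for mitochondria. Under total-count scaling they were 11.4% and 28.6%, 7.69% and 30.8%, and 12.5% and 62.5%. Differences between compartments were not tested.

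**Figure D4:**
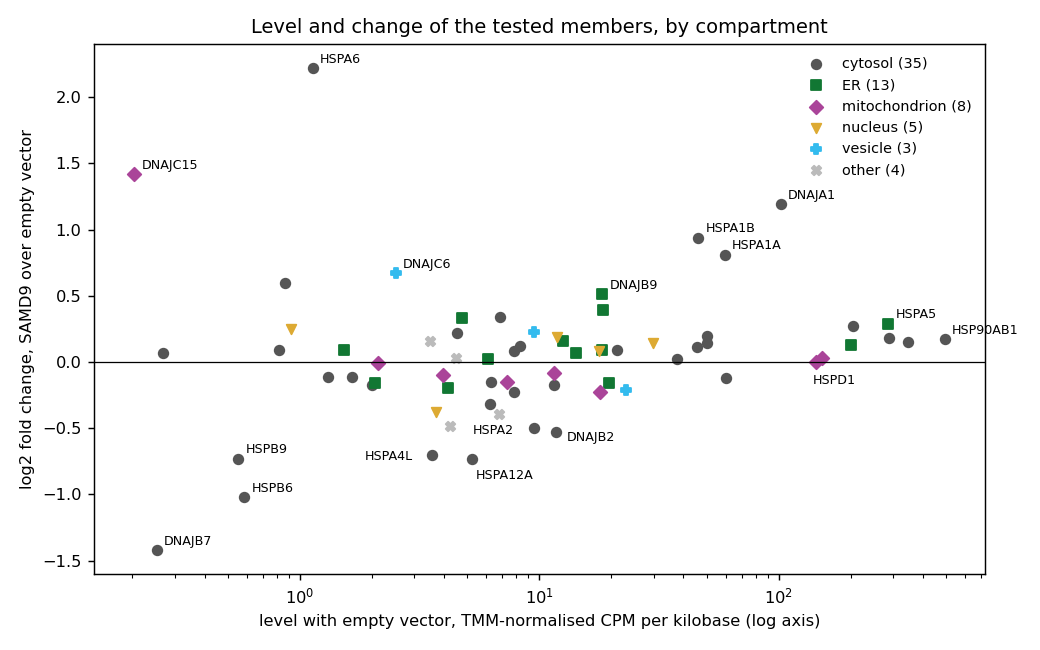
Level with empty vector (TMM-normalised CPM per kilobase of gene length, log axis) against log2 fold change for the 68 tested members, with a symbol and colour for each compartment and the number tested in brackets. Large rises occur at low levels (DNAJC15, HSPA6) and at high ones (DNAJA1, HSPA1A, HSPA1B). The most abundant genes changed less, such as HSP90AB1 (0.17) and HSPA5 (0.29), both called higher with TMM, and HSPD1 (0.00).

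Per kilobase of the listed gene length, the order of levels with empty vector was HSP90AB1 (493 CPM per kilobase), HSP90AA1 (348), HSPA8 (288), HSPA5 (286), HSPB1 (204), HSP90B1 (201), HSPA9 (151), HSPD1 (143), DNAJA1 (102), HSPA4 (60.3) and HSPA1A (59.5). The neighbours HSPA8 and HSPA5, HSPB1 and HSP90B1, and HSPA4 and HSPA1A overlapped in their library values or lay within their spread. With SAMD9, DNAJA1 reached 233 CPM per kilobase and went from rank 9 to rank 6. All members together took 1.30% and 1.28% of all counts in the controls and 1.27% and 1.29% with SAMD9, so the groups overlapped. The log2 ratio of their summed level was 0.18 with TMM and -0.01 with total counts. No p is given, since an exact two-sided permutation test of 2 libraries against 2 cannot go below 0.333.

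Ratios between members inside a library do not depend on the scaling between libraries. The level of HSPA1A and HSPA1B together, per kilobase, was 0.344 and 0.388 of that of HSPA8 with empty vector and 0.598 and 0.582 with SAMD9, 1.61-fold higher. HSPA6 was 0.0046 and 0.00324 of HSPA8 and then 0.0154 and 0.0167, 4.1-fold higher. The inducible HSP70 genes thus took a larger place beside the constitutive one in both SAMD9 libraries.

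DNAJA1 per kilobase was 4.75 and 4.85 times DNAJA2 with empty vector and 10.3 and 10.2 times with SAMD9, 2.14-fold higher. Against DNAJB1 the ratio went from 2.29 and 2.18 to 4.60 and 4.87. In contrast, HSP90AA1 over HSP90AB1 was 0.711 and 0.701 with empty vector and 0.704 and 0.690 with SAMD9, and these groups overlapped. HSPA4L over its relative HSPA4 was 0.0571 and 0.0605 and then 0.0425 and 0.0364, and HSPA2 over HSPA8 was 0.0296 and 0.0363 and then 0.0211 and 0.0200. For these lower ratios both SAMD9 libraries lay below both controls. No p below 0.333 is possible for any of them with an exact permutation test.

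**Figure D5:**
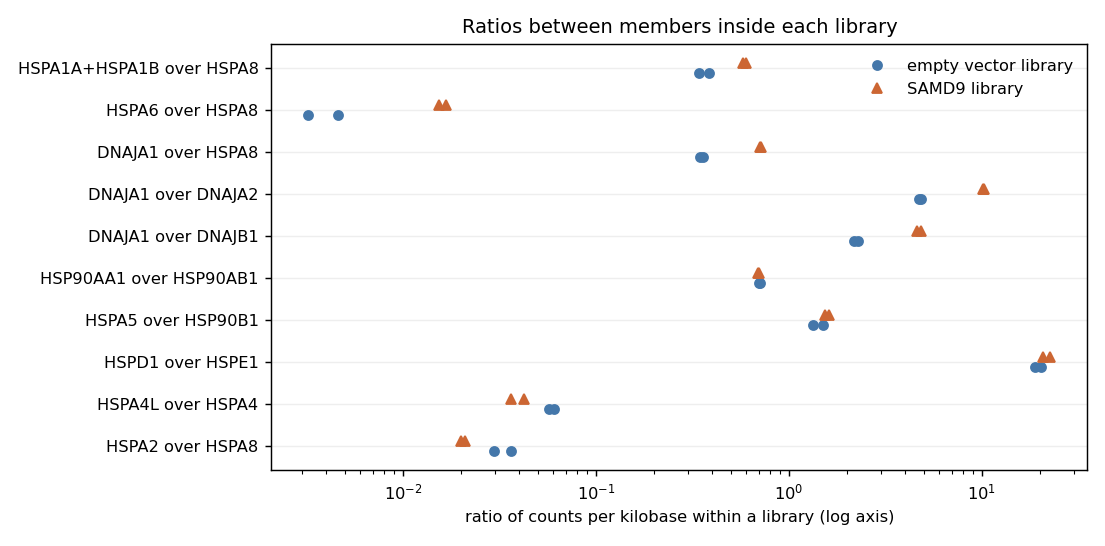
Ratio of counts per kilobase between members inside each library (log axis), with circles for the 2 empty vector libraries and triangles for the 2 SAMD9 libraries. The ratios with HSPA1A and HSPA1B, HSPA6 or DNAJA1 on top are higher with SAMD9, those of HSPA4L and HSPA2 are lower, and HSP90AA1 over HSP90AB1 stays near 0.70 in all 4.

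In TMM-normalised CPM, both SAMD9 libraries lay above both controls for 29 of the 68 tested members (42.6%, against 31.1% of all genes tested). They lay below both for 21 (30.9%, against 30.9%). These counts depend on the scaling and were not made with total counts. The 10 untested members were at or near 0. DNAJC5G, a cysteine string protein isoform, had 6 and 5 counts with SAMD9 and 0 and 0 in the controls. HSPB7, a cardiac small heat shock protein, had 4 and 8 counts and then 0 and 0. DNAJC28 had 14, 7, 0 and 8 counts, DNAJB13 had 2, 3, 2 and 6, and HSPB2 had 2, 0, 0 and 0. DNAJB8, DNAJC5B, HSPB3 and the readthrough genes DNAJC25-GNG10 and HSPB2-C11orf52 had no counts.

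Pseudogenes can take reads of their parent. Of 64 pseudogenes that could be tied to a member by name, 25 were tested. With SAMD9, 4 of the 25 were higher and 0 lower, beside 15.3% and 12.2% of all genes tested. The 4 were DNAJA1P3 (log2 fold change 1.23, SE 0.23, edgeR adjusted p = 2.9e-04), HSPA8P9 (0.79), DNAJB6P1 (0.48) and HSP90AA2P (0.24). Each had a parent that was also called higher, and shared reads could give the same direction, which was not tested. Together the 64 had 1.28% and 1.39% of the members' own counts in the controls and 1.48% and 1.43% with SAMD9. With these counts added to the parents, 18 members were higher and 10 lower, as without them.

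Other genes of the chaperone network were read from the same fit. For comparison, the shares of all genes tested were 15.3% higher and 12.2% lower with TMM, and 9.96% and 28.5% under total-count scaling. Of 13 HSP90 co-chaperones, 3 were higher (23.1%) and the others did not pass. Under total-count scaling 1 was higher and 6 lower (7.69% and 46.2%). FKBP5, an HSP90-bound immunophilin, had a log2 change of 0.44 (SE 0.09, edgeR adjusted p = 0.00123), and CDC37, which brings kinases to HSP90, one of 0.24 (SE 0.06, adjusted p = 0.00521). Of 11 HSP70 partners and exchange factors, 3 were higher and 1 lower (27.3% and 9.09%). Under total-count scaling 1 was higher and 6 lower (9.09% and 54.5%). BAG1 rose from 61.6 and 61.8 CPM to 104 and 106 CPM (0.77, SE 0.07, adjusted p = 9.2e-09), and BAG2 fell from 28.2 and 29.9 CPM to 21.8 and 20.2 CPM (-0.47, SE 0.10, adjusted p = 0.00153). BAG1 is on chromosome 9 (33247820 to 33264763, minus strand), near DNAJA1, and BAG2 overlaps RAB23 on the opposite strand over 2842 exonic bases.

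Among 4 J-domain genes with other symbols, HSCB, a J-domain protein of iron-sulfur cluster assembly in mitochondria, rose from 4.35 and 4.36 CPM to 10.9 and 9.75 CPM (log2 fold change 1.25, SE 0.17, edgeR adjusted p = 5.0e-06). It shares 301 of its exonic bases with CHEK2 on the opposite strand. Of 9 ER chaperones with other symbols, 6 were higher and 0 lower with TMM (66.7% and 0.0%, beside 15.3% and 12.2% of all genes tested). CALR had 0.29 (SE 0.05) and PDIA4 0.30 (SE 0.06), and none of the 6 was called higher under total-count scaling. The cytosolic chaperonin TRiC with prefoldin (14 genes) had PFDN1 (0.31) and PFDN5 (0.19) higher. These are 14.3% of the list, near the 15.3% of all genes tested, and 0 genes of the list were lower. Under total-count scaling both calls were lost (0.12 and 0.00) and 7 of the 14 genes were lower, and PFDN5 was not called with DESeq2 either (adjusted p = 0.0645). HSF4, a heat shock factor best known from the lens, rose from 8.21 and 7.44 CPM to 13.6 and 14.4 CPM (0.84, SE 0.14, adjusted p = 7.6e-05), but 2009 of its 4507 exonic bases overlap an unnamed gene on the same strand. HSBP1, a binding partner of HSF1, was higher at 0.22, a call lost under total-count scaling (0.03). With that scaling HSF4 was the 1 gene called higher and TRAP1 the 1 called lower among the 4 tested of that list of 6. These are 25.0% each, beside 9.96% and 28.5% of all genes.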

How the data were processed

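The deposited files hold raw counts per gene, 1 library each. The CPM and RPKM columns beside them, also the authors', entered no test. The submitters' processing notes name GRCh38, featureCounts 1.4.6-p5 from Subread, STAR 2.5.1a and bcl2fastq. No source used here gives their parameters, the annotation release or whether strand was used, so reads of overlapping genes cannot be told apart. Among low counts 72.9% were even, a pattern that counting both mates of a pair would give, so low counts may stand for fewer fragments.

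Of the 58812 gene IDs, 54836 had a symbol in the name table and 55297 were in GENCODE 29. A further 77 genes with matching symbols were not protein coding. Counts were tested with edgeR 4.0.16 (R 4.3.3, filterByExpr with minimum count 10, TMM, quasi-likelihood F-test, no covariate), which left 19814 genes. TMM factors were 1.07 and 1.07 for empty vector and 0.941 and 0.932 for SAMD9. SE is the absolute log2 fold change over the square root of F. The script was tested on simulated data. Levels per library are TMM-normalised CPM. Alternatives were total-count scaling, DESeq2 1.42.0, no filter, leaving out each library, a replicate block, and adding near-identical copies or (chosen after seeing the data) pseudogenes to their gene.

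The members and lists were chosen with earlier results of these data known. Named were all HSP90, HSPH, HSPD1, HSPE1, HSF and BAG3 genes, the 4 lowest p in each other subfamily, called members that changed by 0.75 or more on the log2 scale, the highest level per length in each subfamily, and the 2 lowest p of each other list. One gene under that rule is not reported here. Members named beyond that rule were chosen after their values were seen.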

Additional observations from a re-analysis of the deposited data

How the results depend on the processing

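Under total-count scaling the all-gene calls were 1974 higher and 5653 lower, the members' 7 and 23, their median -0.12, and the log2 ratio of their summed level -0.01. Leaving out 1 library at a time gave 2291 to 3123 genes higher and 1466 to 2279 lower, 11 to 22 members higher and 6 to 11 lower, and medians of 0.04 to 0.07. The lowest all-gene counts, 2291 and 1466, came without SAMD9 replicate 2. With a replicate block, 2914 genes were higher and 2330 lower, 18 and 9 members (DNAJC2 lost), with a median of 0.08. Same-numbered libraries share only a number (correlation of deviations 0.00415 over 19814 genes). The median was 0.06 with no filter and 0.07 with near-identical copies added. The share of members with heat shock element letters was 10.1% with 3 units and 31.9% with 2. Among the genes named by the rule, the log2 fold changes that changed sign under total-count scaling were those of HSPD1 (-0.18), HSP90AB1 (-0.02), HSF1 (-0.04), HSPA8 (-0.01), HSP90B1 (-0.06), HSPB8 (-0.07), HSPH1 (-0.16), HSP90AA1 (-0.04), DNAJA4 (-0.12), DNAJA2 (-0.09), DNAJB1 (-0.08) and HSPBP1 (-0.05). Other members near 0, such as HSPA9 (-0.16) and HSPA13 (-0.12), also changed sign. HSPD1 was -0.00 with no filter and -0.02 without SAMD9 replicate 2, the range without 1 library being -0.02 to 0.04. DNAJA4 was -0.20 without empty vector replicate 2 and up to 0.40 without empty vector replicate 1. Each shift under total-count scaling is that of the scaling itself. Calls with changes of up to 0.60 (DNAJB5) were lost under at least 1 alternative. Where a library is left out, the lone library of its group is assumed to vary like the others.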
